A study of Homo sapiens with 9 samples.

Results

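The endoplasmic reticulum (ER) stress and amino acid response genes are 43 genes, taken by symbol from the 60325 gene rows of each count file. All 43 had at least 10 counts in at least 3 libraries, and all were among the 16796 genes tested. They fall into an ER arm of 21 genes, made up of 15 chaperones and folding factors and 6 genes of ER-associated degradation (ERAD). A further 5 genes encode the stress sensors and their transcription factors. The ATF4 arm has 17 genes, made up of 8 stress regulators, 6 enzymes of amino acid and one-carbon metabolism and 3 amino acid transporter subunits.

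Expression was measured by RNA sequencing in LAPC4, an androgen-responsive human prostate cancer cell line, at day 30, in 9 libraries of 3 groups. The control cells are titled NT and given the control genotype. The cells titled KD4 are labelled as a knockdown of UGT2B28, a glucuronosyltransferase of the ER membrane, and the rescue cells, titled KD4OE, overexpress UGT2B28 on that knockdown background. Puromycin at 3 ug/mL was the selection given for the knockdown and G418 at 1 mg/mL that for the rescue, and none is given for the controls. Drug and genotype therefore cannot be told apart. Nothing in the labels says that the 3 libraries of a group came from separate cultures, so a p-value here speaks only of how far these libraries lie apart, and that spread may be technical.

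When unfolded proteins build up in the ER, the membrane sensors IRE1, PERK and ATF6 are activated. IRE1, encoded by ERN1, splices the XBP1 mRNA, and XBP1 and ATF6 then raise chaperone and ERAD genes. PERK, encoded by EIF2AK3, phosphorylates the initiation factor eIF2, which slows general translation and favours that of ATF4. The kinase GCN2 acts on eIF2 in the same way when amino acids are short, and ATF4 induces genes of amino acid synthesis and uptake together with regulators such as CHOP, the product of DDIT3. Secretory cells such as prostate luminal epithelium carry a high load of ER folding.

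The UGT2B28 mRNA did not bear out the knockdown label. Its 3 control libraries held 5.12, 5.10 and 7.80 counts per 1000000 scaled by TMM (CPM). The 3 libraries titled KD4 held 8.48, 6.18 and 3.05 CPM, and those of the rescue 75.1, 92.9 and 53.6 CPM. The groups overlapped between control and knockdown-labelled cells, and only the rescue libraries stood apart, so the group is called knockdown-labelled throughout. Library totals ran from 8132206 to 14185252 counts, and the 43 genes took 1.02% to 1.16% of them. Knockdown-labelled libraries 1 and 2 stood apart from library 3: mitochondrial mRNA took 11.5% and 12.1% of their counts against 8.59% in library 3 and 4.41% to 6.90% in the other groups. The luminal prostate markers were detected in every group, all 10 of 10, with summed levels of 4382 to 5484 CPM for control, 3688 to 6530 CPM for knockdown-labelled and 5263 to 6410 CPM for rescue libraries. Of 4 blood cell markers, PTPRC and HBB were at 0 in all libraries, CD3E had 0 to 2 counts and CD68 27 to 115, and the 4 summed to 4.90 to 8.27 CPM for control, 2.94 to 10.4 CPM for knockdown-labelled and 4.68 to 5.96 CPM for rescue libraries. Stroma markers were detected, 5 of 6 at 10 or more counts in 3 libraries, with COL1A1 at 140 to 772 counts, and summed to 19.2 to 73.7 CPM for control, 38.1 to 40.5 CPM for knockdown-labelled and 31.2 to 122.8 CPM for rescue libraries. Of 5 basal and 4 neuroendocrine markers 2 each reached that count in 3 libraries. KRT15 had 432 to 1481 counts and ENO2 121 to 330, while TP63 had 0 to 2 and CHGA 0 to 5. CHGA was at 0 in the knockdown-labelled libraries and in rescue library 3. Basal sums in the same order of groups were 49.2 to 93.2, 51.6 to 138.2 and 74.7 to 94.8 CPM, and neuroendocrine sums 16.9 to 35.7, 16.7 to 19.0 and 24.3 to 37.7 CPM. Whether such cells bear on any result was not tested.

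The arms are known to answer to different factors, whose binding elements are shown here for members that the results name. The ER stress response element (ERSE) is bound by ATF6 and XBP1 with NF-Y, and the related ERSE-II is bound by the same factors. The ATF4/CEBP element is bound by ATF4 dimers. Promoter windows of 250 bases before to 50 bases after the start were found for 38 of the 43 genes in RefSeq (GRCh38.p14). In the following sites the capitals mark the fixed letters of each element, and each is printed 5′ to 3′ on the strand named.
HSPA5 ERSE (chr9:125241386-125241414, minus strand): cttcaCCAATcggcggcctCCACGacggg
CALR ERSE (chr19:12938379-12938407, minus strand): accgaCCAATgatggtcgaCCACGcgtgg
CANX ERSE (chr5:179698773-179698801, plus strand): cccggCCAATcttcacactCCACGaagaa
PDIA6 ERSE (chr2:10812848-10812876, minus strand): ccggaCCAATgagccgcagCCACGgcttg
XBP1 ERSE (chr22:28800598-28800626, minus strand): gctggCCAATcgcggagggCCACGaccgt
HERPUD1 ERSE-II (chr16:56932016-56932044, plus strand): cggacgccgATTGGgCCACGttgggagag
SDF2L1 ERSE-II (chr22:21642105-21642133, minus strand): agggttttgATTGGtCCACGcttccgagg
CHAC1 ATF4/CEBP element (chr15:40953252-40953279, minus strand): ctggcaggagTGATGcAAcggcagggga
ASNS ATF4/CEBP element (chr7:97872459-97872486, minus strand): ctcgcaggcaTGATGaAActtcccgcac

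A gene was counted where any of its windows held a match. The ERSE was searched on both strands as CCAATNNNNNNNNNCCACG. It lay in 6 of the 19 ER-arm genes with a window, which were CALR, CANX, CRELD2, HSP90B1, HSPA5 and PDIA6. It also lay in XBP1 and in 0 of the 14 ATF4-arm genes with a window, against 0.0916% of all 27305 genes with a window. The ERSE-II, searched as ATTGGNCCACG, lay in HERPUD1, HYOU1 and SDF2L1 and in 0.0696% of all genes with a window. The ATF4/CEBP element, searched as TGATGNAA, lay in 3 of the 14 ATF4-arm genes (ASNS, CHAC1 and SLC3A2) and in 1 of the 19 ER-arm genes (HERPUD1). Of all genes with a window 4.46% held it. The CCACG letters that end the ERSE and the ERSE-II occurred alone or within them in 38.1% of all windows. A match is a run of letters and was not tested as a binding site, and no match says only that these letters are not in this window.

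In control cells the most abundant members were folding factors, and the membrane sensor kinases and several ATF4 targets were scarce. Levels are compared between genes as control CPM per 1000 bases of transcript. P4HB, a protein disulphide isomerase, stood at 777 and CALR, a lectin chaperone, at 763, against 142 for HSPA5, the central ER chaperone BiP. Among the ERAD genes the values ran from 7.41 for EDEM1, which directs misfolded glycoproteins to degradation, to 34.3 for SYVN1, the ERAD ubiquitin ligase. Of the sensors, ATF4 stood at 297 and XBP1 at 112, while the kinases EIF2AK3 and ERN1 stood at 8.54 and 3.03. In the ATF4 arm the highest were SLC3A2, the heavy chain of amino acid exchangers, at 80.1 and SHMT2, the mitochondrial serine hydroxymethyltransferase, at 78.1. CHAC1, SESN2, SLC7A11 and ASNS were the lowest of the arm, at 1.61, 1.47, 1.16 and 0.674.

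Some of these counts are uncertain for reasons of annotation. ASNS, the asparagine synthetase and a textbook ATF4 target, had only 3 to 38 counts per library, and 44.6% of its exon bases are shared with another gene on the same strand that itself had 1 to 10 counts. The SE of its log2 fold changes ran from 0.548 to 0.579, so that only large changes of ASNS were detectable at this depth. Genes on the opposite strand overlap exons of 23 of the 43 members, over 10% of the exon bases in 8 of them. The overlap is 33.2% for MTHFD2, 31.6% for DDIT3, 25.2% for PDIA6 and 18.9% for PDIA3. The sources used here do not state a strand setting, so the reads of such pairs cannot be told apart.

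**Figure D1:**
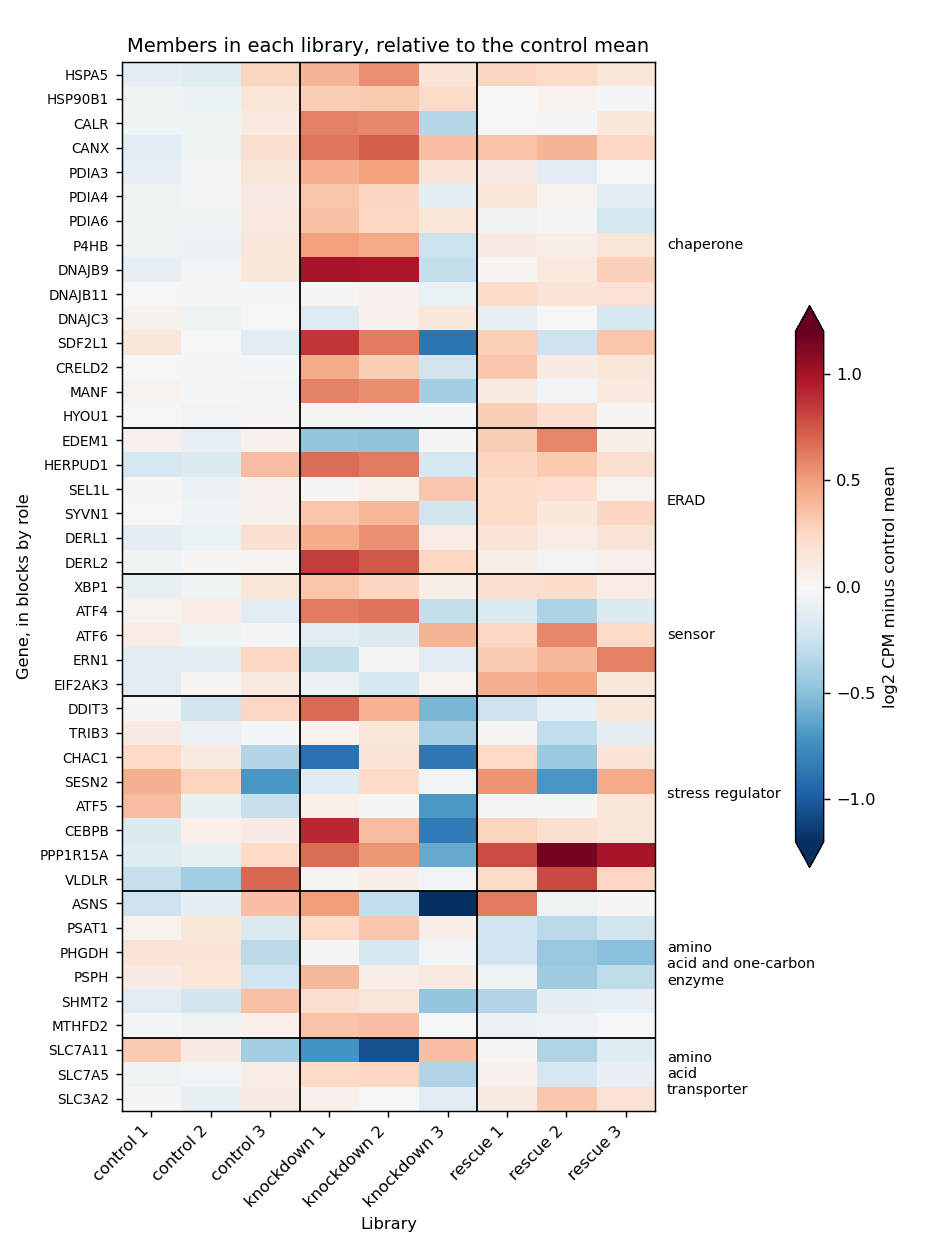
Each row is 1 of the 43 genes, in blocks by role, and each column is 1 library; colour is log2 CPM minus the mean of the 3 control libraries. Knockdown-labelled libraries 1 and 2 are mostly red in the chaperone block, where knockdown-labelled library 3 is mixed, and the colour scale ends at 1.2, beyond which ASNS in knockdown-labelled library 3 lies.

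Knockdown-labelled against control cells is the contrast labelled as a loss of UGT2B28. No member passed in edgeR's quasi-likelihood F test at a Benjamini-Hochberg adjusted p under 0.05, where 0.00595% of all genes tested did. At an unadjusted p under 0.05 there were 6 members, or 14%, where 19.1% of all genes were. The DESeq2 Wald test called 2 members (CANX and DERL2), or 4.65%, where it called 6.01% of all genes. With limma-voom 0 members passed, where 0.00595% of all genes did. Most ER-arm genes were higher in the knockdown-labelled mean all the same. The fold change was above 0 for 18 of 21 ER-arm genes with a median log2 of 0.27, for 7 of 17 ATF4-arm genes with a median of -0.03, and for 3 of 5 sensors with a median of 0.06. Over all genes the median was 0.02. Scaled by library size alone the median of all genes moved to -0.21, and the ER arm lay 0.23 above it, against 0.26 above it with TMM. Under that scaling the ER-arm median was 0.03, with 12 of 21 genes above 0, and 0 of 17 ATF4-arm genes lay above 0. The TMM factors were 0.793 and 0.800 for knockdown-labelled libraries 1 and 2, and 1.03 to 1.11 for the other libraries. These are bulk measurements, in which fewer cells of a type and less RNA per cell cannot be told apart.

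Of the chaperones, CANX and PDIA3 had the smallest p. CANX, the membrane lectin calnexin, stood at 457, 479 and 572 CPM in control and 779, 820 and 644 CPM in knockdown-labelled libraries. All 3 knockdown-labelled values lay above the controls, with a log2 fold change of 0.57 (SE 0.147, edgeR adjusted p = 0.097). PDIA3, the disulphide isomerase that works with calnexin, stood at 722, 756 and 848 CPM against 1048, 1086 and 863 CPM, again without overlap, at a log2 fold change of 0.37 (SE 0.146, adjusted p = 0.212). HSPA5 stood at 508, 499 and 662 CPM in control and 731, 805 and 615 CPM in knockdown-labelled libraries. Those groups overlapped, because control library 3 lay above knockdown-labelled library 3.

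Of the retrotranslocation genes, DERL2, a derlin of the ERAD channel, showed the smallest p of the members. It stood at 59.0, 61.5 and 62.5 CPM in control and 109, 103 and 72.4 CPM in knockdown-labelled libraries. The values did not overlap, and the log2 fold change was 0.63 (SE 0.147, edgeR adjusted p = 0.0861). DERL1, its relative, stood at 58.9, 60.6 and 73.0 CPM against 86.8, 93.8 and 68.1 CPM, and overlapped in knockdown-labelled library 3. EDEM1 lay the other way, at 47.0, 42.4 and 47.2 CPM in control and 33.0, 32.6 and 45.8 CPM in knockdown-labelled libraries, with overlap. In all, 5 members (CANX, DERL2, HSP90B1, PDIA3 and PDIA6) were higher in every knockdown-labelled than in every control library, which is 11.6% of the 43 where 11% of all genes tested were. None was lower without overlap, where 10.2% of all genes were. The share on the higher side is near the background and is no result about the members.

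ATF4 and several genes of its arm lay farther apart between knockdown-labelled libraries than between the group means. ATF4 stood at 617, 636 and 545 CPM in control and at 920, 938 and 491 CPM in knockdown-labelled libraries, so that library 3 was the lowest and libraries 1 and 2 the highest of these 6. DDIT3, the proapoptotic factor CHOP, stood at 24.3, 21.2 and 29.5 CPM against 40.0, 33.1 and 16.9 CPM. CEBPB, a bZIP partner of ATF4, stood at 23.3, 27.3 and 28.0 CPM against 48.9, 33.8 and 14.4 CPM. In each of these genes the controls lay between knockdown-labelled libraries 1 and 2 and library 3. XBP1, the target of IRE1, stood at 227, 233 and 267 CPM in control and 305, 289 and 254 CPM in knockdown-labelled libraries, a log2 fold change of 0.22 (SE 0.124, edgeR adjusted p = 0.364). SLC7A11, the cystine transporter, stood at 13.7, 11.7 and 8.21 CPM against 6.60, 5.21 and 14.2 CPM, so that knockdown-labelled library 3 was the highest of its group.

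**Figure D2:**
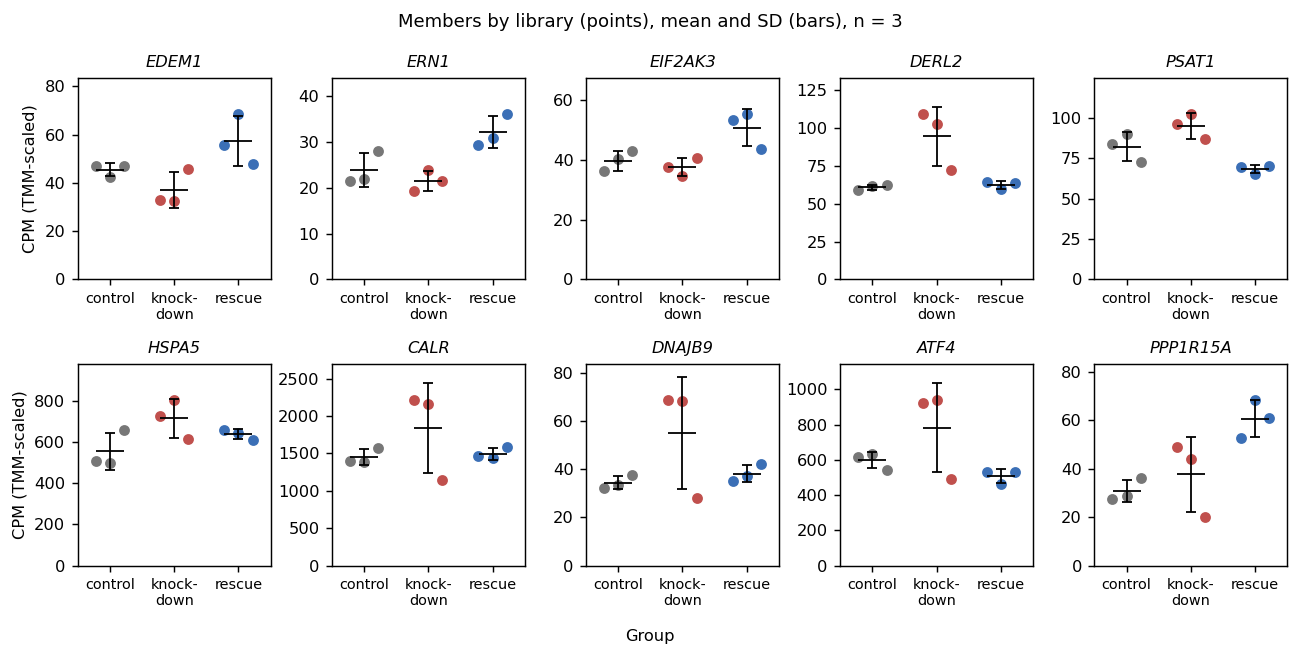
Points are CPM of 1 library each for 10 of the genes, from a zero baseline, and the bars are the mean and SD of the 3 libraries of a group. CALR, DNAJB9 and ATF4 are high in knockdown-labelled libraries 1 and 2 and low in library 3, while ERN1 and PPP1R15A are highest in the rescue libraries.

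P4HB and CALR had the highest mean CPM of the chaperones. P4HB stood at 1929, 1922 and 2217 CPM in control, 2836, 2758 and 1692 CPM in knockdown-labelled and 2161, 2130 and 2237 CPM in rescue libraries. CALR stood at 1396, 1385 and 1574 CPM, at 2208, 2156 and 1144 CPM, and at 1458, 1438 and 1587 CPM. In both, knockdown-labelled library 3 was the lowest of all 9 libraries, and libraries 1 and 2 the highest. Of the ERAD ligase pair, SYVN1 stood at 156, 150 and 162 CPM in control, 196, 205 and 133 CPM in knockdown-labelled and 184, 171 and 186 CPM in rescue libraries. Its adaptor SEL1L stood at 84.0, 78.8 and 85.5 CPM, at 83.9, 86.4 and 103.7 CPM, and at 96.5, 94.9 and 85.4 CPM. SEL1L was highest in the library where SYVN1 was lowest. The SEL1L transcript has 39.4% GC and 7925 bases, and the SYVN1 transcript 56.3% GC and 4547 bases. That library departed from the controls by GC content and by length over all genes, as given below. Whether either bears on this pair was not tested.

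Among the enzymes of the ATF4 arm, MTHFD2, of mitochondrial folate metabolism, stood at 173, 171 and 182 CPM in control, 222, 226 and 175.2 CPM in knockdown-labelled and 165, 168 and 174.5 CPM in rescue libraries. SHMT2 stood at 240, 225 and 336 CPM, at 301, 291 and 190 CPM, and at 206, 243 and 245 CPM. For SHMT2 the groups overlapped in every comparison, while MTHFD2 was lower in every rescue than in every knockdown-labelled library by a small margin. PHGDH, the first enzyme of serine synthesis, stood at 224, 226 and 162 CPM in control, 204, 177 and 197 CPM in knockdown-labelled and 172, 147 and 142 CPM in rescue libraries. PSPH, the last, stood at 18.8, 19.4 and 14.8 CPM, at 23.0, 18.5 and 18.9 CPM, and at 17, 12.9 and 14.1 CPM. Both PHGDH and PSPH were lower in every rescue than in every knockdown-labelled library. SLC7A5, the leucine transporter that pairs with SLC3A2, stood at 141, 144 and 157 CPM in control, 173, 175 and 115 CPM in knockdown-labelled and 152, 128 and 138 CPM in rescue libraries. SLC3A2 stood at 176, 168 and 190.6 CPM, at 184, 178 and 162 CPM, and at 191.4, 223 and 199.9 CPM. SLC7A5 overlapped in every comparison, while SLC3A2 was higher in every rescue library than in the others, though rescue library 1 and control library 3 nearly met. TRIB3 stood at 95.7, 85.2 and 88.4 CPM, at 92.1, 98.8 and 68.1 CPM, and at 91.9, 73.1 and 83.3 CPM. CHAC1, which degrades glutathione, stood at 3.49, 3.16 and 2.26 CPM, at 1.48, 3.27 and 1.52 CPM, and at 3.49, 2.10 and 3.28 CPM. ASNS stood at 1.28, 1.43 and 2.05 CPM, at 2.29, 1.24 and 0.326 CPM, and at 2.504, 1.49 and 1.59 CPM. The groups of these 3 genes overlapped in every comparison.

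The calls of this comparison turned on knockdown-labelled library 3. Without it 25 of the 43 members passed, 23 higher and 2 lower (EDEM1 and SLC7A11), where 32.9% of all genes passed, 18.1% higher and 14.8% lower. The ER arm gave 17 of these calls, 16 higher and 1 lower, and the ATF4 arm 6, of which 5 were higher. DNAJB9, a BiP cochaperone, stood at 32.3, 33.7 and 37.8 CPM in control against 68.8 and 68.4 CPM in knockdown-labelled libraries 1 and 2, with a log2 fold change of 0.99 (SE 0.113, adjusted p = 3.05e-06). In library 3 it stood at 28.2 CPM, below every control. With library 3 as the only knockdown-labelled library, and its spread taken from the other groups, 5 members passed and all were lower (CALR, CEBPB, MANF, PPP1R15A and SDF2L1), where 11.4% of all genes passed and 9.07% were lower. CALR was 0.59 higher on the log2 scale without library 3 and fell by 0.37 with it alone.

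Within the knockdown-labelled and the control libraries the difference between the arms was steadier than either arm. The ER-arm median relative to the control mean was 0.438 and 0.45 in knockdown-labelled libraries 1 and 2 and -0.028 in library 3 on the log2 scale. The ATF4-arm median was 0.195, 0.147 and -0.358. The ER arm minus the ATF4 arm was therefore 0.244, 0.303 and 0.33 in the 3 knockdown-labelled libraries, against -0.039, -0.015 and 0.036 in the controls. In the rescue libraries the difference was 0.119, 0.195 and 0.105. It was less steady there than the ER-arm median, which was 0.154, 0.085 and 0.131. The order of the groups by this difference was as follows. All 3 knockdown-labelled libraries lay above all 3 rescue libraries, and those above all 3 controls. This is a description, since it is a score over genes that were chosen, and it carries no test.

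**Figure D3:**
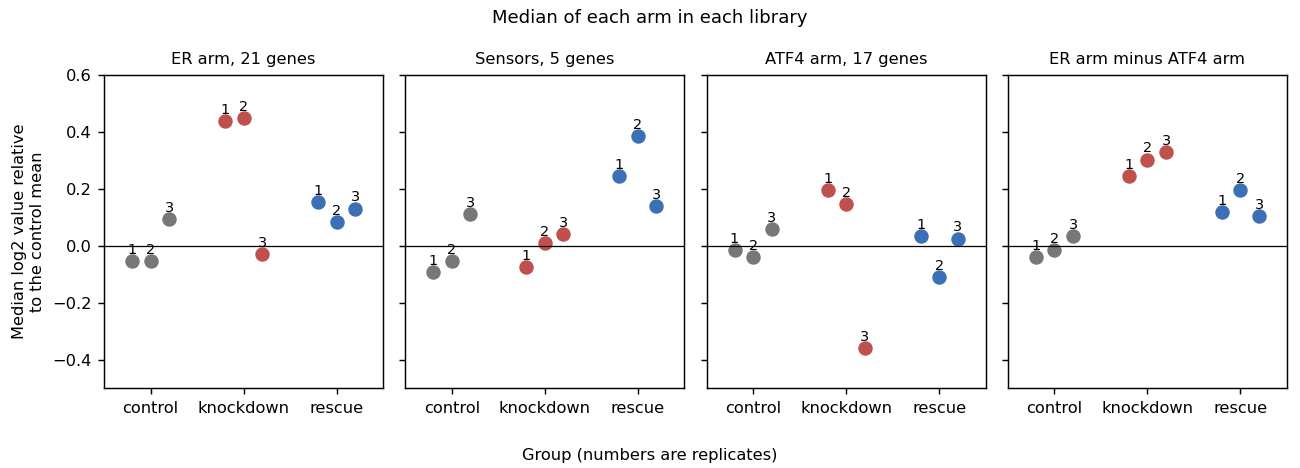
Each point is the median of an arm's genes in 1 library, as log2 CPM relative to the mean of the controls, and the right panel is the ER-arm median minus the ATF4-arm median. Knockdown-labelled library 3 lies far below libraries 1 and 2 in the ER and ATF4 panels, and beside them in the right panel, at 0.33.

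Transcript length and GC content moved with the libraries and differ between the arms. All genes were divided into 3 equal classes by length and again by GC content. Relative to the control mean, the shortest class had a median log2 of 0.206 and 0.16 in knockdown-labelled libraries 1 and 2, and the longest one of -0.157 and -0.13. Knockdown-labelled library 3 went the other way, at -0.121 for the shortest class and 0.139 for the longest. Rescue libraries 1, 2 and 3 had -0.058, -0.069 and 0.03 for the shortest and 0.058, 0.085 and -0.003 for the longest. In knockdown-labelled library 3 the class of lowest GC content had a median of 0.258 and that of highest GC content one of -0.357. The median transcript of the ER arm has 3727 bases and 45.8% GC, and that of the ATF4 arm 2378 bases and 57.0% GC. After a correction for both, chosen after seeing the data, the ER arm minus the ATF4 arm was 0.236, 0.295 and 0.171 in the knockdown-labelled libraries, against -0.037, -0.007 and 0.057 in the controls, which did not overlap. In the rescue libraries it was then 0.157, 0.184 and 0.06. Knockdown-labelled library 3 then lay below rescue library 2, so these groups overlapped, and rescue library 3 lay only just above control library 3.

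Rescue against knockdown-labelled cells sets the libraries that overexpress UGT2B28 against those labelled as its knockdown, where its mRNA overlapped the controls. Of the 43 members 4 passed, 9.3% of them, where 9.83% of all genes did, 4.44% higher and 5.39% lower. The share is near the background and is no result about the members as a set. Of the 4, EDEM1 and the sensor kinase ERN1 rose, and DERL2 and the serine synthesis enzyme PSAT1 fell. None of the 4 has an ERSE, an ERSE-II or an ATF4/CEBP element in its window.

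EDEM1 stood at 33.0, 32.6 and 45.8 CPM in knockdown-labelled and 55.9, 68.4 and 47.8 CPM in rescue libraries. The groups did not overlap, though knockdown-labelled library 3 and rescue library 3 nearly met, and the log2 fold change was 0.63 (SE 0.169, edgeR adjusted p = 0.0425). ERN1 stood at 19.4, 23.8 and 21.4 CPM against 29.4, 31.0 and 36.1 CPM, a rise of 0.57 (SE 0.155, adjusted p = 0.0434). In knockdown-labelled library 3 the ERN1 level lay between those of libraries 1 and 2, and with library 3 as the only one of its group ERN1 passed again at 0.60 (adjusted p = 0.0446).

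DERL2 stood at 109, 103 and 72.4 CPM in knockdown-labelled and 64.5, 59.6 and 63.6 CPM in rescue libraries and fell by 0.60 on the log2 scale (SE 0.147, edgeR adjusted p = 0.0317). Its rescue values overlapped those of the controls, with a log2 fold change of 0.04 between these groups. PSAT1, the phosphoserine aminotransferase, stood at 96.0, 102 and 86.5 CPM against 69.3, 65.4 and 70.2 CPM and fell by 0.47 (SE 0.119, adjusted p = 0.0337). The other enzymes of serine synthesis did not pass, PSPH being at -0.45 (adjusted p = 0.119) and PHGDH at -0.32 (adjusted p = 0.189). Of the 6 amino acid and one-carbon enzymes 5 had a fold change below 0, with a median of -0.31, where the median of all genes was -0.0023.

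These 4 calls were narrow. None of them held when control library 1 or 2, knockdown-labelled library 1 or 2, or any 1 rescue library was left out, and ERN1 and PSAT1 alone held without control library 3. Scaled by library size alone, which moved the median of all genes to 0.24, 3 members passed and all were higher (ERN1, PPP1R15A and SLC3A2), where 9.27% of all genes passed and 7.9% were higher. Corrected for length and GC content the fit again called 4 members, where 5.37% of all genes passed, and of the 4 above only EDEM1 (log2 0.56, adjusted p = 0.0307) was among them. ERN1, with a transcript of 7876 bases, then stood at 0.33 (adjusted p = 0.21) and PSAT1, with 2188 bases, at -0.20 (adjusted p = 0.275). ATF4, DNAJB11 and EIF2AK3 passed in their place. Without knockdown-labelled library 3, 27 members passed, 6 higher and 21 lower, where 39% of all genes passed, 18.6% higher and 20.4% lower. With that library alone 11 passed, all higher, where 19.5% of all genes passed and 12.7% were higher.

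Scaled by TMM, chaperones lay mostly below 0 in this comparison and the kinase sensors above it. Scaled by library size alone, the ER-arm median was 0.109, with 16 of 21 genes above 0, where the median of all genes was 0.241. The chaperone median minus that of all genes was -0.136 under that scaling and -0.227 with TMM. The chaperones had a fold change below 0 in 13 of 15, with a median of -0.23, and PDIA6 at -0.34 (adjusted p = 0.0959) had the smallest p. Without knockdown-labelled library 3 the chaperone median was -0.35. With that library as the only one of its group the median was 0.23, and 10 of 15 lay above 0. EIF2AK3 stood at 37.6, 34.7 and 40.7 CPM in knockdown-labelled and 53.4, 55.2 and 43.6 CPM in rescue libraries, without overlap, at a log2 fold change of 0.43 (SE 0.132, edgeR adjusted p = 0.0622). ATF4 stood at 920, 938 and 491 CPM against 533, 462 and 533 CPM, at -0.62 (SE 0.221, adjusted p = 0.0971), with knockdown-labelled library 3 inside the rescue range. Members whose groups did not overlap numbered 7 on the higher side, 16.3% where 14.6% of all genes were, and 8 on the lower side, 18.6% where 14% of all genes were. The ER arm minus the ATF4 arm had a difference of medians of -0.10 in this comparison, and 0.014 after the correction for length and GC content, where the sign was the other one.

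**Figure D4:**
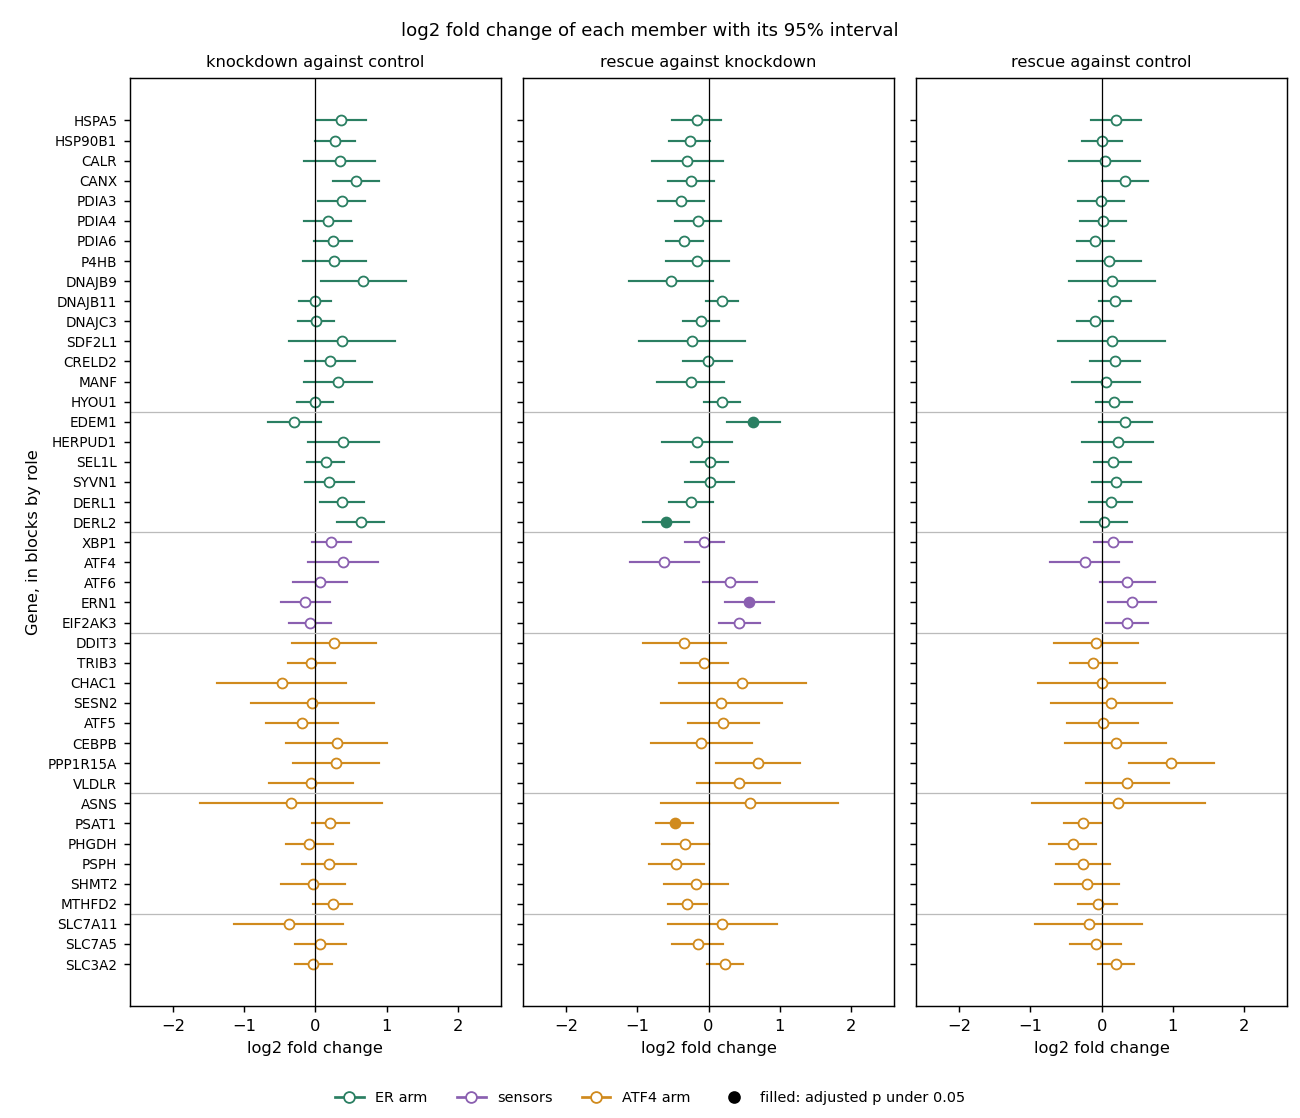
Points are log2 fold changes of the 43 genes and lines their 95% intervals, coloured by arm, with filled points where the adjusted p was under 0.05. Filled points appear only in the middle panel, for EDEM1, DERL2, ERN1 and PSAT1, and the ER-arm points lie mostly right of 0 in the left panel.

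Rescue against control cells sets the libraries with the most UGT2B28 mRNA against the controls. No member passed in edgeR, where 0.149% of all genes did. At an unadjusted p under 0.05 there were 6 members, or 14%, where 10.5% of all genes were. The DESeq2 Wald test called 1 member (PPP1R15A), or 2.33%, where it called 1.94% of all genes. With limma-voom 0 members passed, where 0.0774% of all genes did. The DESeq2 share is near the background. The ER arm was above 0 in 18 of 21 genes with a median log2 of 0.14, the sensors in 4 of 5 with a median of 0.36, and the ATF4 arm in 7 of 17 with a median of -0.05. The controls are the same libraries as in the first comparison. Members higher in every rescue than in every control library numbered 11, or 25.6%, where 12.8% of all genes were. Those lower in every rescue library were ATF4 and PSAT1, or 4.65%, where 13.6% of all genes were.

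PPP1R15A, also GADD34, the phosphatase subunit that reverses eIF2 phosphorylation, showed the largest difference. It stood at 27.6, 28.7 and 36.1 CPM in control and 52.7, 68.1 and 61.0 CPM in rescue libraries. Every rescue library lay above every control, at a log2 fold change of 0.98 (SE 0.27, 95% interval 0.38 to 1.57, edgeR adjusted p = 0.205). The fit shares 1 estimate of spread per gene over all groups, and PPP1R15A was spread most in the knockdown-labelled libraries, at 48.7, 44.1 and 20.0 CPM. Fitted on control and rescue libraries alone it passed (adjusted p = 0.000451), as did CANX (adjusted p = 0.0472), where 5.87% of all genes passed. Without knockdown-labelled library 3, PPP1R15A and CANX were higher and PHGDH lower past the threshold, where 7.38% of all genes passed.

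Of the chaperones, CANX stood at 635, 664 and 594 CPM in rescue libraries, above every control. PDIA3 stood at 828, 705 and 770 CPM and HSPA5 at 659, 648 and 611 CPM in rescue libraries, and both overlapped the controls. PDIA6, another disulphide isomerase, stood at 230.1, 232 and 260.1 CPM in control, 306, 286 and 266 CPM in knockdown-labelled and 233, 239 and 208 CPM in rescue libraries. It overlapped between rescue and control, and every knockdown-labelled library lay above both groups. DNAJB11 stood at 43.1, 43.4 and 42.7 CPM in control, 43.6, 44.8 and 40.6 CPM in knockdown-labelled and 50.02, 48.0 and 48.6 CPM in rescue libraries, and was higher in every rescue library than in the others. DERL1 stood at 71.1, 67.8 and 71.2 CPM in rescue libraries, XBP1 at 275, 281 and 258 CPM, DDIT3 at 20.9, 23.1 and 27.2 CPM and SLC7A11 at 11.2, 8.48 and 9.94 CPM. These 4 overlapped both other groups. PSAT1, at 84.0, 89.8 and 72.3 CPM in control, was lower in every rescue library.

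The 3 membrane sensors were also higher in every rescue than in every control library, and ATF4 was lower. ERN1 stood at 21.5, 21.8 and 28.1 CPM in control against the rescue values above, at a log2 fold change of 0.43 (SE 0.155, edgeR adjusted p = 0.352). EIF2AK3 stood at 36.1, 40.1 and 42.8 CPM in control and differed by 0.36 (adjusted p = 0.364), and ATF6, at 31.7, 28.5 and 29.2 CPM in control and 35.3, 44.6 and 35.0 CPM in rescue libraries, by 0.36 (adjusted p = 0.493). ATF4 stood at -0.23 (adjusted p = 0.79). Its known targets lay on both sides of 0: PSAT1 stood at -0.26, PHGDH at -0.41 and TRIB3, a pseudokinase that feeds back on ATF4, at -0.12, while SLC3A2 stood at 0.20 and DDIT3 at -0.08.

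ER-arm genes with and without an ERSE or ERSE-II overlapped in their values. In knockdown-labelled against control cells the 9 ER-arm genes with either element had a median log2 of 0.34 and a range of -0.01 to 0.57. The 10 with a window and neither element had a median of 0.18 and a range of -0.29 to 0.67. HSPA5, CALR, CANX and PDIA6, whose sites are printed above, stood at 0.37, 0.34, 0.57 and 0.25. In rescue against control cells the medians were 0.18 and 0.13. The ranges contained each other's medians, and no test was made of this difference.

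The wider pathway was read from lists of other genes with the same roles. Of 94 such genes tested, 0 passed in edgeR both in knockdown-labelled against control and in rescue against control cells. At an unadjusted p under 0.05 there were 28 in the first comparison, or 29.8% where 19.1% of all genes were, and 4 in the second, or 4.26% where 10.5% were. The DESeq2 Wald test called 8, or 8.51% where it called 6.01% of all genes, and 2, or 2.13% where it called 1.94%. With limma-voom 0 and 0 passed. In rescue against knockdown-labelled cells 2 of 19 other ER folding genes fell, KDELR2, a receptor that returns chaperones to the ER, by 0.64 (edgeR adjusted p = 0.0348) and NUCB2, a calcium-binding protein, by 0.99 (adjusted p = 0.0158). KDELR2 stood at 402, 408 and 267 CPM in knockdown-labelled and 222, 227 and 241 CPM in rescue libraries, and NUCB2 at 50.7, 57.6 and 34.0 CPM against 20.8, 23.4 and 27.4 CPM. Of 22 other genes of ERAD and ER entry, EDEM3 and NPLOC4 rose and UFD1 and SSR1 fell. NPLOC4 and UFD1 are partners in the complex that extracts ERAD substrates, and they moved in opposite directions, by 0.51 (adjusted p = 0.0481) and -0.41 (adjusted p = 0.0465).

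The lists around eIF2 and ATF4 gave few calls. The eIF2 subunit EIF2S1 fell by 0.45 (edgeR adjusted p = 0.0346) and the haem-regulated kinase EIF2AK1 by 0.47 (adjusted p = 0.0305), 2 of 17 genes of their list. EIF2S1 stood at 130, 128 and 128 CPM for knockdown-labelled and 100.4, 97.7 and 83.7 CPM for rescue libraries, so that knockdown-labelled library 3 did not depart from libraries 1 and 2. Of 24 other ATF4 targets 1 rose, SLC7A1, a cationic amino acid transporter, by 0.45 (adjusted p = 0.0443). Of 12 tRNA synthetases with known ATF4 sites 1 fell, NARS1, by 0.52 (adjusted p = 0.0175). The 10 calls of these lists are 10.6% of the 94 genes, near the 9.83% of all genes that passed in the same comparison.

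In the other comparisons, where none of the 94 passed, the 2 genes of smallest p in each list had the following log2 fold changes. For knockdown-labelled against control, at edgeR adjusted p of 0.0733 to 0.187, the folding genes NUCB2 and KDELR2 stood at 0.99 and 0.65, and UFD1 and SEC62 of ERAD and ER entry at 0.46 and 0.49. EIF2AK1 and EIF2S1 both stood at 0.32, the ATF4 targets GPT2 and SLC7A1 at -0.35 and -0.38, and the tRNA synthetases NARS1 and TARS1 at 0.38 and 0.28. Of these 10 genes 8 were above 0 and 2 below, a tally of genes picked by p that does not describe the lists. Of all 94 genes 62 were above 0 and 32 below, where 8638 of all 16796 genes tested were above 0. For rescue against control, at adjusted p of 0.0541 to 0.749, ERO1A and KDELR3 stood at 0.23 and 0.37, EDEM3 and UBE2J1 at 0.68 and -0.19, and CREB3L2 and EIF2AK2 at 0.26 and -0.45. ATF3, a stress-induced transcription factor, stood at 1.45 and MTHFD1L at -0.46, and the synthetases SARS1 and NARS1 at 0.17 and -0.15.

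Within groups the members moved with the library. Control library 3 was the highest control for 16 of 21 ER-arm genes and 28 of all 43, where it was for 6416 of all 16796 genes tested. VLDLR, a lipoprotein receptor induced by ATF4, reached 66.0 CPM in that library against 33.7 and 30.4 CPM in control libraries 1 and 2. COL1A1, a stroma marker, had 148, 140 and 484 counts in these 3 libraries, and its part in the difference was not tested. VLDLR stood at 41.7, 43.1 and 39.7 CPM in knockdown-labelled and 47.9, 70.8 and 48.4 CPM in rescue libraries. Knockdown-labelled library 3 was the lowest of its group for 17 of 21 ER-arm and 12 of 17 ATF4-arm genes. It was also the lowest for 7255 of all 16796 genes tested, and the highest for 7328. Of the 21 ER-arm genes, rescue library 1 was the highest of its group for 8, library 2 for 6 and library 3 for 7. On the lowest side the division was uneven, at 1, 10 and 10 genes in the same order. DNAJB11, a BiP cochaperone, was among the steadiest members, at 43.0 ± 0.353 CPM in control, 43.0 ± 2.15 CPM in knockdown-labelled and 48.9 ± 1.03 CPM in rescue libraries (SD, n = 3).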

How the data were processed

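The authors deposited read counts for each gene as whole numbers, without normalization. The tools named per the submitters' processing notes are STAR, HTSeq, FastQC and cutadapt, with hg38 as the build. Their versions, the annotation and the strand setting are not given in sources used here. Rows that name no gene stayed out of library sizes and tests; reads on no feature made up 43.7% to 48.7% of all rows' counts. The tests used edgeR 4.0.16 under R 4.3.3 (TMM factors, quasi-likelihood F test, minimum count of 10 in filterByExpr, all 9 libraries, 6 residual degrees of freedom, Benjamini-Hochberg adjustment over 16796 genes, threshold 0.05, 95% intervals). CPM are counts per 1000000 scaled by TMM, and values relative to the control mean use a prior count of 2. The test was checked on simulated counts, drawn independently for each gene and library, with known changes in some genes. Shifts shared by many genes of a library were not simulated, so the check does not cover them. Lengths and overlaps came from GENCODE release 29.

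The members, lists and tests were chosen with earlier results of these data known. Named were members that passed, the 2 highest in mean CPM and the 2 smallest p of each role and comparison, ATF4, XBP1, DDIT3, HSPA5, ASNS and UGT2B28, and, of the other lists, genes that passed, else the 2 smallest p of each list and comparison; other names were chosen after their values were seen. DESeq2 1.42.0 and limma-voom 3.58.1 served as alternatives.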

Additional observations from a re-analysis of the deposited data

How the results depend on the processing

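With knockdown-labelled library 3 as the only one of its group, values changed sign and passed against control for CALR (-0.37), SDF2L1 (-0.90), MANF (-0.44), CEBPB (-0.89) and PPP1R15A (-0.65). Against rescue this held for CALR (0.41), P4HB (0.39), SDF2L1 (1.04), CRELD2 (0.43), MANF (0.50) and CEBPB (1.09). The lone library is assumed to vary like the other groups.

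For knockdown-labelled against control cells, 3 members passed with no filter (6.98%, all genes 2.98%), 2 by the DESeq2 Wald test (4.65%, all genes 6.01%) and 5 with library 3 alone (11.6%, all genes 11.4%), against 0; leaving out 1 library gave 0 to 25 (all genes 32.9% at 25). For rescue against knockdown-labelled cells, 7 passed by DESeq2 (16.3%, all genes 16.1%), 11 with library 3 alone (25.6%, all genes 19.5%) and 0 with only the groups compared (all genes 0.0426%) or at an adjusted p under 0.01 (all genes 0.965%), against 4; leaving out 1 library gave 0 to 27 (all genes 39% at 27). For rescue against control cells, 1 passed with no filter (2.33%, all genes 1.14%), 1 by DESeq2 (2.33%, all genes 1.94%), 2 with only the groups compared (4.65%, all genes 5.87%) and 2 with library 3 alone (4.65%, all genes 5.27%), against 0; leaving out 1 library gave 0 to 3 (all genes 7.38% at 3). The ER minus ATF4 difference of medians was 0.31, -0.10 and 0.19. It became 0.22 and -0.23 with voom in the first pair, 0.22 and 0.014 with the length and GC correction, and -0.18 and 0.091 with means in the second pair. Leaving out 1 library gave 0.23 to 0.35, -0.043 to -0.20 and 0.11 to 0.21. The cause was not tested.

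With the replicate number as a block, 0, 0 and 0 members passed (all genes 0%, 2.63% and 0.0238%) and the difference of medians was 0.30, -0.13 and 0.20. Of 9 same-numbered pairs of libraries 0 correlated over 0.1. With 3 libraries per group this cannot decide whether the numbers pair the libraries.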
